A study of Homo sapiens with 12 samples.

Results

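MicroRNA gene regions were examined for DNA methylation and hydroxymethylation in HL-60 cells before and after differentiation with dimethyl sulfoxide (DMSO). A region belonged to the set where the deposited table placed it on a gene, or within 5000 bases of the start of a gene, whose symbol was MIR or MIRLET followed by a digit. The rule found 2413 regions of the 393484 in both tables, 2009 of 327949 for 5-hydroxymethylcytosine (5hmC) and 404 of 65535 for 5-methylcytosine (5mC). They carried 759 microRNA symbols, of which 713 had a 5hmC region, 242 a 5mC region and 196 both, and 615 symbols matched a hairpin in RefSeq.

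HL-60 is an established line of human promyelocytic leukemia that matures toward neutrophil-like cells in DMSO. The undifferentiated cells were untreated, live and negative for CD11b, a surface integrin of mature myeloid cells, and the differentiated cells had received 1.5% DMSO (211 mM) for 7 days and were live and positive for CD11b. DNA was taken from 3 biological replicates of each state and every preparation was divided between capture with an antibody against 5mC (MeDIP-seq) and capture with an antibody against 5hmC (hMeDIP-seq), which gave 12 libraries in 4 groups of 3. All libraries come from a single cell line, so the p-values measure the spread among its cultures, and the states differ in both the treatment and the CD11b gate.

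MicroRNA genes are transcribed into long primary transcripts that hold a short stem-loop, the hairpin, which nucleases cut into a mature RNA of little more than 20 bases. The mature RNA guides Argonaute proteins to messenger RNAs, mainly through its seed, bases 2 to 8 from the 5′ end, and represses them. Many microRNA genes lie in introns or share a primary transcript with neighbors, and several with CpG islands at their starts are known to be silenced by DNA methylation in leukemia. 5hmC is made from 5mC by the TET enzymes and can be a step toward removal of the mark.

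The mature sequences of the microRNAs on which the results below turn are shown first, because regions of several genes can concern RNAs with a shared seed. The sequences are from RefSeq (build GRCh38.p14), written 5′ to 3′ with the seed in capitals. The first group holds microRNAs studied in granulocytes, monocytes and their leukemias, the let-7 founder of a family that restrains cell growth, and miR-10a from the HOXB cluster.
hsa-miR-34a-5p: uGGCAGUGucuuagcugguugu
hsa-miR-29b-3p: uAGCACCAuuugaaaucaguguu
hsa-miR-146b-5p: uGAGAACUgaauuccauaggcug
hsa-miR-181b-5p: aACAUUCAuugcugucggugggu
hsa-miR-193a-3p: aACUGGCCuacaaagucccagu
hsa-miR-23a-3p: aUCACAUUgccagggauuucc
hsa-miR-27a-3p: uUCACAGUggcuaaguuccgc
hsa-miR-24-3p: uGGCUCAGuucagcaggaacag
hsa-let-7a-5p: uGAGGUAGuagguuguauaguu
hsa-miR-10a-5p: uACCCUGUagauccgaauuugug

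Among the microRNA genes with a region in either table, the seed of miR-146b-5p was shared by 2 (MIR146A and MIR146B), that of miR-181b-5p by 3 (MIR181B1, MIR181C and MIR4262), that of miR-193a-3p by 2 (MIR193A and MIR193B) and that of let-7a-5p by 4 (MIRLET7A1, MIRLET7A3, MIRLET7B and MIRLET7E). MiR-23a-3p, miR-27a-3p and miR-24-3p come from a single transcript and have different seeds. The second group shows members of a pair of large microRNA clusters, the imprinted DLK1-DIO3 cluster of chromosome 14q32 (the first 4) and the placental cluster of chromosome 19q13 (the others).
hsa-miR-379-3p: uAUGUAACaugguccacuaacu
hsa-miR-411-3p: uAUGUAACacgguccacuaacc
hsa-miR-127-3p: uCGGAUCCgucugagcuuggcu
hsa-miR-494-3p: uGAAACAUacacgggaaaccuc
hsa-miR-520d-3p: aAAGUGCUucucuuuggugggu
hsa-miR-519d-3p: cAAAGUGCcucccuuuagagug
hsa-miR-516a-3p: uGCUUCCUuucagagggu
hsa-miR-521: aACGCACUucccuuuagagugu

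MiR-379-3p and miR-411-3p, neighbors in the 14q32 cluster, have the same seed. The seed of miR-520d-3p was shared by 3 genes with regions (MIR372, MIR520C and MIR520D), and that of miR-519d-3p also by 3, of which MIR106B belongs to another cluster, that of the growth-promoting MIR17 family.

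Capture measures how much DNA bearing a mark was pulled down, which also follows CpG content and copy number, and not the share of modified cytosines. Total counts ran from 13010267 to 33693880 per 5hmC library and from 6076100 to 9670011 per 5mC library, the latter over the listed regions only. In 5mC every differentiated library held more counts (at least 7940755) than every undifferentiated one (at most 6851769), and the part of depth in the results was not tested. Levels are given in CPM, the reads of a region relative to all counted reads of its library, on totals adjusted by TMM, which allows for regions that differ. The 5mC table held only the regions with the strongest difference between the states in the authors' deposited table (largest deposited p-value 0.0165), so the share of 5mC regions that pass describes that list and not the genome. A region is called higher or lower in the differentiated cells where edgeR's quasi-likelihood test over the whole table, with Benjamini-Hochberg adjustment, gave an adjusted p under 0.05; every adjusted p below is from that test unless another is named, and every fold change is differentiated over undifferentiated on the log2 scale, with its standard error (SE) and n = 3 per state.

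The label of the set held only in part. The longest human hairpin in RefSeq measures 164 bases and the median hairpin 80, yet 34 symbols were placed on stretches of 5.0 to 596.6 kb (median 213.8 kb), 2 of them on 2 chromosomes, and 25 of the 34 belong to the MIR548 family, which has many near-identical copies in the genome. Regions under these extended models cannot all be microRNA genes, and they made up 948 of the 2009 5hmC and 192 of the 404 5mC regions. A further 55 and 13 regions lay in, or up to 5000 bases upstream of, 15 host transcripts such as MIR100HG and MIR155HG, long RNAs that contain microRNAs. The remainder, called microRNA loci here, comprised 1006 5hmC and 199 5mC regions. Of these, 95 and 38 overlapped a hairpin gene, 187 and 29 lay just downstream of its start, and 724 and 132 lay up to 5000 bases upstream. Downstream regions at a deposited distance of 0 that missed the gene began 99 to 997 bases beyond the start. Of the 1006 locus regions of 5hmC, 644 also lay inside another gene.

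The microRNA regions changed with differentiation about as often as other regions. In 5hmC, 547 of 2009 were higher (27.2%) and 462 lower (23.0%) in the differentiated cells, against 27.0% and 23.3% of all 5hmC regions. The median log2 fold change was -0.014 over microRNA regions and -0.04 over all regions. In 5mC, 156 of 404 were higher (38.6%) and 152 lower (37.6%), against 35.7% and 37.0% of the listed 5mC regions, with medians of 0.268 and 0.221. Calls in either direction made up 50.2% of the microRNA regions in 5hmC and 76.2% in 5mC, against 50.3% and 72.7% of all regions. In 5hmC the 3 libraries of one state all lay above those of the other in 539 microRNA regions with the differentiated state higher and 527 with it lower (53.1% together), against 26.2%, 25.9% and 52.2% of all regions. In 5mC this held for 179 and 164 (84.9% together), against 43.1%, 43.0% and 86.1%. These shares lie near the background. The balance of the directions rests on the scaling. With plain library totals the 5hmC calls became 282 higher and 727 lower and the 5mC calls 10 higher and 195 lower, while the medians of all regions moved to -0.248 and -0.035. No microRNA region called in one direction was called in the other under any setting tried.

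The counts of 5hmC calls varied with the position relative to the hairpin and to CpG islands. On hairpins, 35 of 95 5hmC regions were higher (36.8%) and 8 lower (8.42%), with a median of 0.29, against 27.0% and 23.3% of all 5hmC regions. However, with plain library totals 17 were higher and 14 lower, with scaling on the strongest regions 13 and 16, and with DESeq2 19 and 1. Without differentiated replicate 3 the hairpin counts were 21 and 5, and without undifferentiated replicate 1 they were 27 and 3. Just downstream, 46 of 187 were higher (24.6%) and 42 lower (22.5%), with a median of 0.01. Upstream, 180 of 724 were higher (24.9%) and 166 lower (22.9%), with a median of -0.003. The downstream and upstream shares lay near those of all 5hmC regions. Regions in CpG islands accounted for 18 of the 95 hairpin regions and were wider there (median 1400 bases, against 800 for hairpin regions away from islands). Of the 74 locus regions in islands, 36 were higher and 0 lower (median 0.41), whereas of the 164 in island shores (within 2000 bases of an island) 26 were higher and 38 lower (median -0.02). Over all 5hmC regions in islands the shares were 42.1% higher and 3.77% lower with a median of 0.38, close to those at microRNA loci. With plain library totals 11 of the 74 island regions were higher and 1 was lower, and with scaling on the strongest 10% of regions 9 were higher and 3 lower. DESeq2 called 11 of them higher, and leaving out a library gave between 21 (without undifferentiated replicate 1) and 36.

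**Figure D1:**
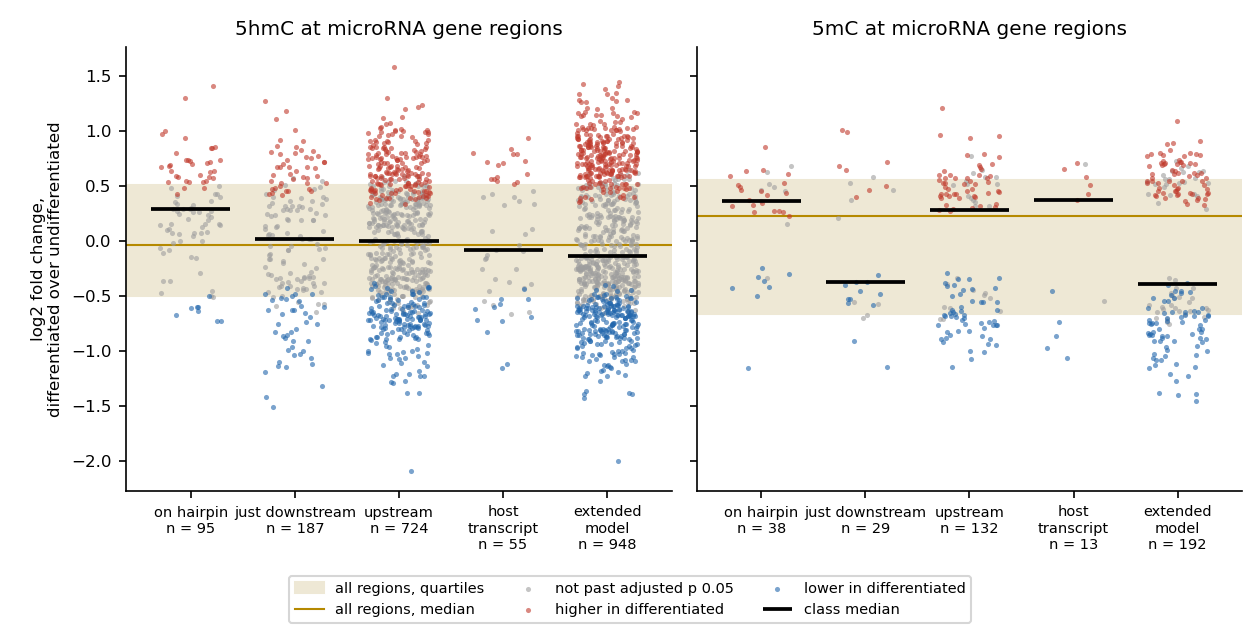
Log2 fold change (y axis) of every microRNA region in the 5hmC table (left) and the 5mC table (right), by position relative to the microRNA gene (x axis); red and blue points passed an adjusted p of 0.05, black bars are class medians, and the gold line and pale band are the median and quartiles of all regions of that table. The hairpin class of 5hmC has its median at 0.29 and only 8 blue points, and the 5mC panel has a gap around 0 because its table lists only regions with a difference.

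The hairpin regions with the largest 5hmC rise were those of MIR4737 and MIR1260B. At MIR4737 (chr17:58120001-58120400, in a CpG island) 5hmC was 0.515, 0.724 and 0.966 CPM in the undifferentiated replicates 1 to 3 and 1.52, 1.61 and 2.1 CPM in the differentiated ones. Every differentiated library exceeded every undifferentiated one, and the log2 fold change was 1.41 ± 0.27 (SE; adjusted p = 5.51e-05). At MIR1260B (chr11:96074601-96075400, inside MAML2, a coactivator of Notch signaling) the values were 0.732, 0.724 and 0.483 CPM before and 1.58, 1.34 and 1.85 CPM after, again without overlap (1.30 ± 0.27, adjusted p = 0.000157). These are low levels, under 2.2 CPM in every library. The 8 hairpin regions with lower 5hmC included 2 of the MIR320 family (MIR320D1, -0.73, and MIR320C2, -0.60) and a region of MIR7-2 and MIR3529 (-0.64).

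In 5mC, 21 of 38 hairpin regions were higher and 8 lower (median 0.36), against 35.7% and 37.0% of all listed 5mC regions. Each fit without 1 library called fewer, from 9 (without undifferentiated replicate 3) to 14 higher and from 1 (without undifferentiated replicate 1) to 7 lower, and DESeq2 called 2 and 0. The hairpin with the largest fall was MIR4680 (chr10:112657601-112658200, inside PDCD4, an inhibitor of translation). Its 5mC was 3.64, 3.76 and 3.17 CPM in undifferentiated and 1.35, 1.51 and 1.83 CPM in differentiated replicates. All differentiated libraries were below all undifferentiated ones (-1.16 ± 0.29, adjusted p = 0.00389; DESeq2 adjusted p = 0.104). With plain library totals 1 of the 38 remained higher and 9 were lower. The region with the highest 5mC per kilobase was that of MIR3648 and MIR3687 (chr21:9825401-9828200, in a CpG island), a ribosomal DNA-like stretch near the centromere where reads of many copies can collect. It rose from 465, 461 and 435 CPM to 568, 624 and 623 CPM (0.42 ± 0.06, adjusted p = 2.6e-08), and its call was lost with scaling on the strongest regions (0.13, adjusted p = 0.159).

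MicroRNA genes known for roles in granulocytes and other myeloid cells changed in both directions in 5hmC and in 1 direction in 5mC. Of the 37 genes listed, 21 had 26 5hmC regions, of which 6 were higher, 6 lower and 14 not past the threshold (median 0.002). The shares over all 5hmC regions were 27.0% higher and 23.3% lower. With plain library totals 3 of the 26 were higher and 10 lower, and with DESeq2 1 and 3. Without undifferentiated replicate 1 the counts were 3 and 4, and without differentiated replicate 3 they were 2 and 5. Only 4 had a listed 5mC region, and all 4 regions were lower (median -0.91), namely those of MIR34A, MIR130A, MIR29B1 and MIR146B, against 37.0% of all listed 5mC regions. DESeq2 called 0 of the 4 (adjusted p = 0.13 at MIR130A and 0.244 at MIR146B), and without undifferentiated replicate 3 the count was 2. MIR223, the microRNA most characteristic of granulocytes, had no region in either table.

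MIR29B1 was lower in both marks. MiR-29b targets the DNA methyltransferases DNMT3A and DNMT3B. In the region 2303 bases upstream of its start (5hmC chr7:130564601-130565600), 5hmC was 4.45, 4.39 and 4.1 CPM in undifferentiated and 2.42, 2.6 and 2.69 CPM in differentiated replicates. The replicates of each state were close together and the states far apart (-0.74 ± 0.16, adjusted p = 0.000326), and the call held in each of the 6 fits that left out 1 library. In the overlapping 5mC region (chr7:130564601-130565800) the values were 11.3, 9.76 and 10.4 CPM and then 7.55, 5.64 and 5.6 CPM. Every differentiated library was below every undifferentiated one, and the log2 fold change was also -0.74 ± 0.16 (adjusted p = 0.000753; DESeq2 adjusted p = 0.0568).

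MIR34A, a target of p53 and CEBPA that halts the cell cycle, lost 5mC 1565 bases upstream of its start (chr1:9213401-9214000). The 5mC values were 5.39, 4.06 and 4.04 CPM in undifferentiated and 2.48, 2.48 and 1.49 CPM in differentiated replicates, with no overlap (-1.08 ± 0.26, adjusted p = 0.00219; DESeq2 adjusted p = 0.0914). At the same coordinates 5hmC was 1.14, 1.35 and 1.69 CPM and then 0.733, 0.627 and 1.06 CPM. These did not overlap either, but the difference missed the threshold (-0.60 ± 0.27, adjusted p = 0.0547). It passed with plain library totals (-0.82, adjusted p = 0.0127), with the replicate block (adjusted p = 0.033), and without undifferentiated replicate 1 (-0.78, adjusted p = 0.0467) or differentiated replicate 3 (-0.94, adjusted p = 0.0361). A second 5hmC region of MIR34A, 4565 bases upstream, had 2.80 ± 0.32 and 3.22 ± 0.71 CPM (SD, n = 3), and the states overlapped.

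MIR130A, which is abundant in immature myeloid cells and falls during their maturation, had regions that moved apart. In the distal one, 4872 bases upstream (chr11:57403201-57403800), 5hmC was 1.6, 1.98 and 1.33 CPM in undifferentiated and 0.676, 0.358 and 0.845 CPM in differentiated replicates (-1.23 ± 0.27, adjusted p = 0.000395). All differentiated libraries were lower and the call held in each fit without 1 library. 5mC at the same coordinates was 4.31, 2.1 and 5.05 CPM before and 1.8, 2.34 and 1.14 CPM after. Here undifferentiated replicate 2 fell within the differentiated range (-1.15 ± 0.29, adjusted p = 0.00372), and the call was lost without undifferentiated replicate 3 (adjusted p = 0.0701). The proximal region, 1672 bases upstream (chr11:57404801-57407000), had higher 5hmC, with 5.34, 5.31 and 5.91 CPM before and 7.89, 6.09 and 7.3 CPM after (0.39 ± 0.15, adjusted p = 0.0243). That call was lost with plain library totals (0.18, adjusted p = 0.286), with the replicate block (adjusted p = 0.0643), and without undifferentiated replicate 1 or 2 or differentiated replicate 1 or 3 (adjusted p = 0.0638 to 0.124). Scaling on the strongest regions and DESeq2 ended it too.

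MIR146B, which like MIR146A dampens Toll-like receptor signaling, had a region just downstream of its start (chr10:104196401-104198000). Its 5mC was 10.6, 9.61 and 12.4 CPM in undifferentiated and 7.44, 8.53 and 7.89 CPM in differentiated replicates. The states did not overlap (-0.46 ± 0.15, adjusted p = 0.0266), but the call was lost without undifferentiated replicate 1 or 3 or differentiated replicate 1 or 3 (adjusted p = 0.055 to 0.222). 5hmC at the same place was 4.48, 3.91 and 3.8 CPM and then 3.38, 2.87 and 3.6 CPM, lower in every differentiated library yet past the threshold only with other scalings (-0.29 ± 0.16, adjusted p = 0.112; -0.50, adjusted p = 0.00971 with plain library totals).

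The largest 5hmC rise among myeloid genes was at MIR181B1, whose family is active in lymphoid and early myeloid cells. Just downstream of its start (chr1:198825601-198827200) 5hmC was 1.44, 1.45 and 0.302 CPM in undifferentiated and 2.76, 2.42 and 2.41 CPM in differentiated replicates (1.11 ± 0.23, adjusted p = 0.00021). Undifferentiated replicate 3 lay well below the other 2, and without it the call held; DESeq2 gave an adjusted p of 0.0886. MIR125B2, a microRNA that blocks myeloid maturation when in excess, rose 958 bases upstream of its start (chr21:17960401-17961600) from 1.57, 1.64 and 1.69 CPM to 2.76, 2.24 and 3.22 CPM. The undifferentiated libraries were nearly equal and all differentiated ones higher (0.82 ± 0.19, adjusted p = 0.000708). Its paralog MIR125B1 had 2 upstream regions inside MIR100HG with higher 5hmC (0.89 ± 0.26, adjusted p = 0.005, and 0.77 ± 0.27, adjusted p = 0.0146). Each call held in only 4 of the 6 fits without 1 library. Both were lost without differentiated replicate 3 (adjusted p = 0.216 and 0.0669), and the first was lost without undifferentiated replicate 1 (adjusted p = 0.0687). Scaling on the strongest regions and DESeq2 ended both calls, and plain library totals ended the second. MIR9-1, a microRNA of neural cells that is also found in leukemia, was higher (0.55 ± 0.20, adjusted p = 0.0218), a call lost without differentiated replicate 3 (0.28, adjusted p = 0.386) or undifferentiated replicate 1 (adjusted p = 0.0722) and with the replicate block (adjusted p = 0.0724). Plain library totals, scaling on the strongest regions and DESeq2 ended that call as well.

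The falls in 5hmC included MIR193A and the MIR23A cluster. MIR193A, which represses the KIT receptor and is silenced in leukemias with the AML1-ETO fusion, had 1.33, 0.965 and 1.57 CPM in undifferentiated and 0.507, 0.537 and 0.689 CPM in differentiated replicates in a CpG island shore 1816 bases upstream (chr17:29884801-29885200). The states did not overlap (-1.07 ± 0.29, adjusted p = 0.00287) and the call held in each fit without 1 library. The MIR23A, MIR27A and MIR24-2 cluster, a target of the myeloid factor PU.1, was lower just downstream of its start (chr19:13946201-13946600; -1.06 ± 0.33, adjusted p = 0.00813) and 928 bases upstream (chr19:13948401-13948800; -0.71 ± 0.26, adjusted p = 0.0214). In the downstream region the values were 1.19, 0.579 and 1.45 CPM before and 0.394, 0.806 and 0.47 CPM after, so that the states overlapped. Both calls were lost without undifferentiated replicate 1 (adjusted p = 0.0733 and 0.138) and without differentiated replicate 3 (adjusted p = 0.0747 and 0.134), and the upstream one also without undifferentiated replicate 2 or differentiated replicate 1 (adjusted p = 0.0601 and 0.0705) and with the replicate block (adjusted p = 0.0779). DESeq2 called neither region of the cluster. A region 2458 bases upstream of MIR155HG, the host transcript of the inflammatory miR-155, was lower by the same test. It went from 2.52, 2.36 and 2.53 CPM to 1.47, 1.16 and 2.1 CPM (-0.53 ± 0.20, adjusted p = 0.0245). That call was lost without undifferentiated replicate 1 or differentiated replicate 1 or 2 (adjusted p = 0.0722 to 0.101) and with DESeq2.

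Other myeloid genes did not pass in 5hmC. MIR142, which is specific to blood cells, had 1.11, 1.11 and 0.845 CPM before and 1.18, 0.448 and 1.85 CPM after (0.37 ± 0.27, adjusted p = 0.236), a spread among the differentiated libraries wider than the difference. MIR21, an oncogenic microRNA inside VMP1, had 3.26, 3.42 and 3.74 CPM and then 3.16, 2.87 and 2.79 CPM (-0.23 ± 0.17, adjusted p = 0.222). Its states did not overlap, and it was called lower with plain library totals and with scaling on the strongest regions. The strongest myeloid region in 5hmC was the hairpin of MIR125A with MIR99B and MIRLET7E beside it (chr19:52196201-52198400), with 9.2, 9.98 and 8.33 CPM before and 10.5, 11.3 and 11.4 CPM after. All differentiated libraries were higher there, by an amount that did not pass (0.27 ± 0.15, adjusted p = 0.113). MIR126, MIR146A, MIR196B, MIR16-1 and MIR328 ranged from -0.33 to 0.19 and did not pass. With scaling on the strongest regions MIR16-1 and the MIR328 regions starting at chr16:67233201 and chr16:67238801 were called lower. The latter was also called lower with plain library totals.

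**Figure D2:**
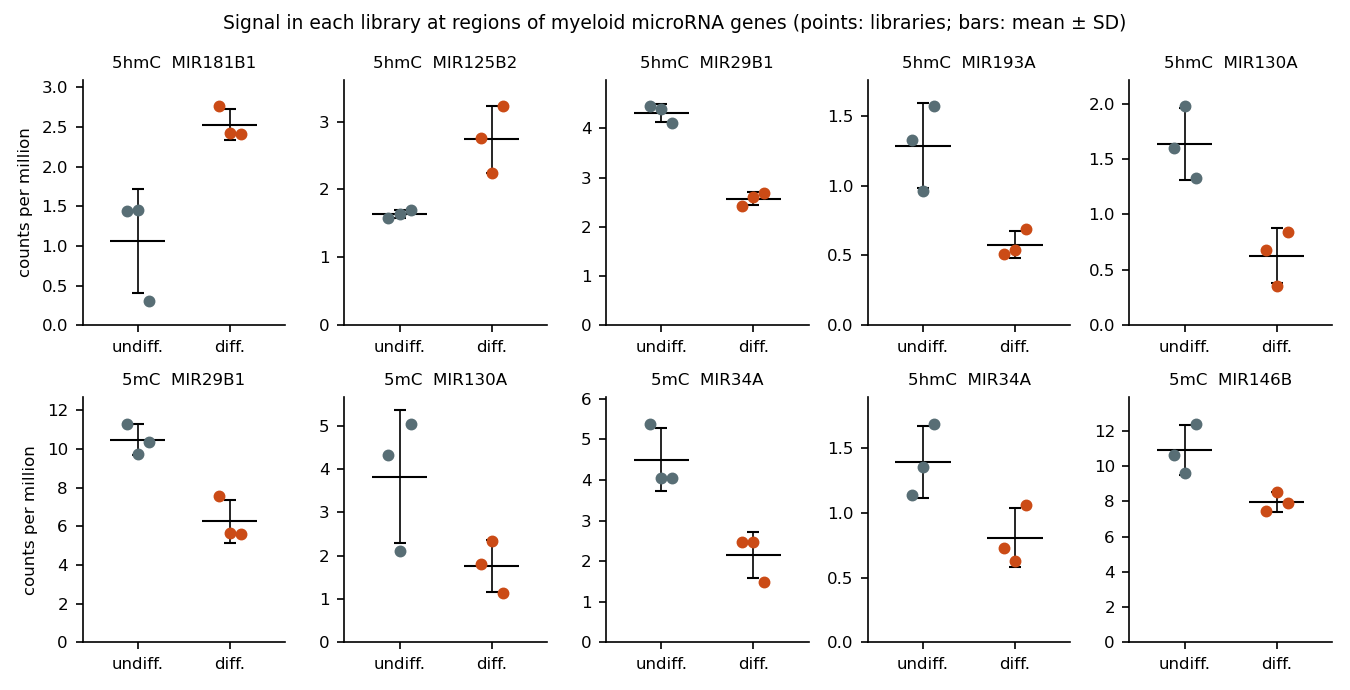
CPM in each library (y axis, from 0) at 10 regions of myeloid microRNA genes, by state (x axis; undiff., undifferentiated; diff., differentiated); points are libraries, horizontal bars the mean and error bars the SD over 3 libraries. Differentiated libraries lie above undifferentiated ones for 5hmC at MIR181B1 and MIR125B2 and below them in the other panels, apart from 1 undifferentiated library for 5mC at MIR130A.

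The let-7 family and its partners, growth-restraining microRNAs often clustered with MIR99 and MIR125 genes, had 27 5hmC regions, of which 11 were higher and 4 lower (median 0.38), against 27.0% and 23.3% of all 5hmC regions. The counts were 6 and 1 without undifferentiated replicate 1, 7 and 1 without differentiated replicate 3, 9 and 2 without differentiated replicate 1, and 3 and 1 with DESeq2. Of these regions, 16 lay along or upstream of MIR100HG, the long host transcript of MIR100, MIRLET7A2 and MIR125B1. Among them 8 were higher and 3 lower, so the count rests largely on a single transcript. MIRLET7A1 had the largest rise, 2640 bases upstream of its start (chr9:96935001-96935600), from 0.841, 0.965 and 1.15 CPM to 1.63, 2.06 and 1.88 CPM. All differentiated libraries were higher (0.95 ± 0.24, adjusted p = 0.00156) and no setting tried ended the call. Upstream of MIR99B (chr19:52190401-52192400) 5hmC rose from 8.68, 8.68 and 8.45 CPM to 14, 14.1 and 9.96 CPM (0.53 ± 0.15, adjusted p = 0.00383; adjusted p = 0.0538 with plain library totals). Scaling on the strongest regions also ended the MIR99B call. A region 3078 bases upstream of MIRLET7BHG, the host of MIRLET7A3 and MIRLET7B, was lower. It went from 2.22, 1.11 and 1.63 CPM to 0.845, 0.537 and 0.877 CPM (-1.12 ± 0.27, adjusted p = 0.000851), and without undifferentiated replicate 1 the adjusted p was 0.0664. The other 3 of the 4 MIRLET7BHG regions were not called, and the median of the 4 was 0.05. With plain library totals 3 of the 27 were higher and 7 lower. In 5mC the list had 5 regions, with 1 higher and 1 lower, both in MIR100HG. The let-7 host transcript MIRLET7DHG was not on the list and leaned the other way. It had 1 of 6 5hmC regions higher and 3 lower, and its 5mC region was lower (-0.86 ± 0.18, adjusted p = 0.000493).

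Few regions represented the MIR17 and HOX lists. MIR17HG, the host of the proliferative MIR17 cluster that MYC drives, was lower in 5hmC at its only region (2.14, 1.5 and 1.69 CPM against 0.958, 0.896 and 1.28 CPM; -0.73 ± 0.24, adjusted p = 0.0105), a call lost without undifferentiated replicate 1 (-0.52, adjusted p = 0.15). DESeq2 did not call MIR17HG either. MIR106B, its paralog inside MCM7, a DNA replication helicase, was higher (0.46 ± 0.19, adjusted p = 0.0426), a call lost without undifferentiated replicate 1 or 3 or differentiated replicate 1 or 3 (adjusted p = 0.0872 to 0.186), with the replicate block (adjusted p = 0.0658) and with plain library totals (0.25, adjusted p = 0.297). Neither scaling on the strongest regions nor DESeq2 kept the MIR106B call. MIR10A, between the HOXB genes that pattern blood progenitors, was higher (1.22, 1.45 and 1.27 CPM against 1.97, 1.61 and 2.29 CPM; 0.65 ± 0.22, adjusted p = 0.0126) and was not past the threshold with plain library totals (adjusted p = 0.0978) or without undifferentiated replicate 1 (adjusted p = 0.0833) or differentiated replicate 3 (adjusted p = 0.15). It was also not called with scaling on the strongest regions or with DESeq2. MIR10A was the 1 of 3 HOX regions that passed, and neither list had a 5mC region.

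Of the microRNA genes known for silencing at CpG islands in tumors, 16 of 30 had 20 5hmC regions, with 5 higher and 3 lower (median 0.16). Among all 5hmC regions 27.0% were higher and 23.3% lower. The list counts were 1 and 5 with plain library totals and 1 and 1 with DESeq2. The rises numbered 2 without undifferentiated replicate 1 or differentiated replicate 1. The largest rise was at the hairpin of MIR124-1, a neural microRNA, whose island on chromosome 8 went from 4.5, 5.26 and 4.47 CPM to 8.51, 7.7 and 8.99 CPM (0.84 ± 0.15, adjusted p = 1.53e-05). The states were far apart, and every setting tried kept the call. Its upstream shore went the other way in 5mC (6.74, 6.46 and 5.91 CPM against 4.73, 4.81 and 3.54 CPM; -0.55 ± 0.20, adjusted p = 0.0443), although each of the 6 fits without 1 library lost that call, with adjusted p = 0.0565 to 0.292. MIR193A and MIR34A, described above, are also on this list.

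At the 14q32 cluster, which is expressed from the maternal chromosome together with MEG3, more regions were called higher than lower, by a margin that depends on the scaling. In 5hmC, 6 of 15 regions were higher and 1 lower (median 0.39), against 27.0% and 23.3% of all 5hmC regions. The counts were 3 and 2 with plain library totals, 3 and 1 with DESeq2 and 4 and 1 without undifferentiated replicate 1. In 5mC, 7 of 7 regions, which together concern 17 microRNA genes, were higher, from 0.26 to 0.65 (median 0.52). Among all listed 5mC regions 35.7% were higher. With plain library totals 0 of the 7 were called, with scaling on the strongest regions 2 of them had the opposite sign, and DESeq2 called none of them. Of the 7, the MIR379 region described next was the only one that kept its call in each of the 6 fits without 1 library, which called from 2 (without undifferentiated replicate 3) to 5 of the 7. The largest 5hmC rise was upstream of MIR770 inside MEG3 (chr14:101313401-101315400), from 3.23, 2.36 and 3.38 CPM to 6.09, 4.93 and 6.7 CPM. The states were well separated (1.01 ± 0.16, adjusted p = 2.79e-06) and every setting tried kept the call. The only fall lay 3745 bases upstream of MIR431 (chr14:101343201-101343600; 1.55, 0.965 and 1.63 CPM against 0.676, 0.537 and 0.751 CPM; -1.02 ± 0.28, adjusted p = 0.00319). A second region, 145 bases from the same start in a CpG island shore, was higher (0.80 ± 0.19, adjusted p = 0.000825).

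The largest 5mC rise of the cluster was upstream of MIR379 (chr14:101485601-101487200), the first gene of its long microRNA array. The values were 7.14, 8.41 and 10.4 CPM in undifferentiated and 14, 14.3 and 12.5 CPM in differentiated replicates, without overlap (0.65 ± 0.14, adjusted p = 0.000754; adjusted p = 0.06 with plain library totals and 0.0649 by DESeq2). The 5hmC region over the same stretch (chr14:101484201-101487800) was the strongest 5hmC region of the cluster at 21.1, 23 and 26 CPM before and 31.8, 33.9 and 26.1 CPM after. Differentiated replicate 3 barely exceeded undifferentiated replicate 3 (0.39 ± 0.17, adjusted p = 0.0438), and the call was lost without any one undifferentiated replicate or without differentiated replicate 1 (adjusted p = 0.0515 to 0.226) and with the replicate block (adjusted p = 0.129). Plain library totals, scaling on the strongest regions and DESeq2 also ended the call. Over MIR433, MIR127, MIR432 and MIR136 inside the imprinted gene RTL1 (chr14:101347801-101351200) 5mC was 33.8, 31.8 and 29 CPM before and 39.5, 40.3 and 33.8 CPM after, the last equal to the highest undifferentiated value at this rounding (0.26 ± 0.09, adjusted p = 0.0301; -0.02 with scaling on the strongest regions). Over MIR494, MIR1193 and MIR543 (chr14:101495601-101499000) the values were 26, 28.4 and 30.6 CPM and then 31.8, 33.4 and 36.8 CPM (0.27 ± 0.09, adjusted p = 0.0306; -0.02 with scaling on the strongest regions).

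The 19q13 cluster, the largest human microRNA cluster and active mainly in placenta and stem cells, had 5hmC calls in the direction of lower levels, few of which held in every setting. Of 23 regions of 22 genes, 0 were higher and 8 lower (median -0.39), against 23.3% lower among all 5hmC regions. The genes counted include MIR371A and MIR372, which lie beside the large cluster, and MIR371A had 3 of the regions, 1 of them lower. With plain library totals 11 were lower and with the replicate block 6. Without undifferentiated replicate 1 only 2 were lower, without differentiated replicate 1 or 3 the count was 5, and DESeq2 called 1. The largest fall was upstream of MIR521-1 (chr19:54250401-54250800), from 1.19, 1.35 and 1.09 CPM to 0.451, 0.537 and 0.751 CPM. The states did not overlap (-0.96 ± 0.30, adjusted p = 0.00671; DESeq2 adjusted p = 0.0573). MIR516A1 fell from 3.47, 3.71 and 3.44 CPM to 2.2, 2.51 and 2.16 CPM (chr19:54258401-54259600; -0.65 ± 0.17, adjusted p = 0.00206), with tight replicates in both states and a call that every setting kept. MIR498 fell from 1.65, 1.59 and 1.27 CPM to 0.676, 0.806 and 1.1 CPM (-0.75 ± 0.26, adjusted p = 0.0141), a call lost without undifferentiated replicate 1 (adjusted p = 0.0859) or differentiated replicate 1 (adjusted p = 0.0802). DESeq2 did not call it. At the hairpin of MIR519D 5hmC differed by 0.00 ± 0.18 (adjusted p = 0.995).

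5mC did not follow a single direction at 19q13. Of 3 listed regions, those of MIR520D (chr19:54221601-54223000; 8.49, 8.11 and 9.66 CPM against 11.7, 12.7 and 12.5 CPM; 0.48 ± 0.14, adjusted p = 0.0135) and MIR1283-1 (0.44, adjusted p = 0.0465) were higher, and that of MIR518A2 (4.85, 5.71 and 4.9 CPM against 3.49, 3.3 and 3.32 CPM; -0.61 ± 0.22, adjusted p = 0.0487) was lower. Each of the 6 fits without 1 library lost the call at MIR518A2 (adjusted p = 0.0804 to 0.208). The call at MIR520D was lost with plain library totals (0.23, adjusted p = 0.77) and without undifferentiated replicate 1 or 2 (adjusted p = 0.0533 and 0.0645). Scaling on the strongest regions and DESeq2 also ended that call.

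**Figure D3:**
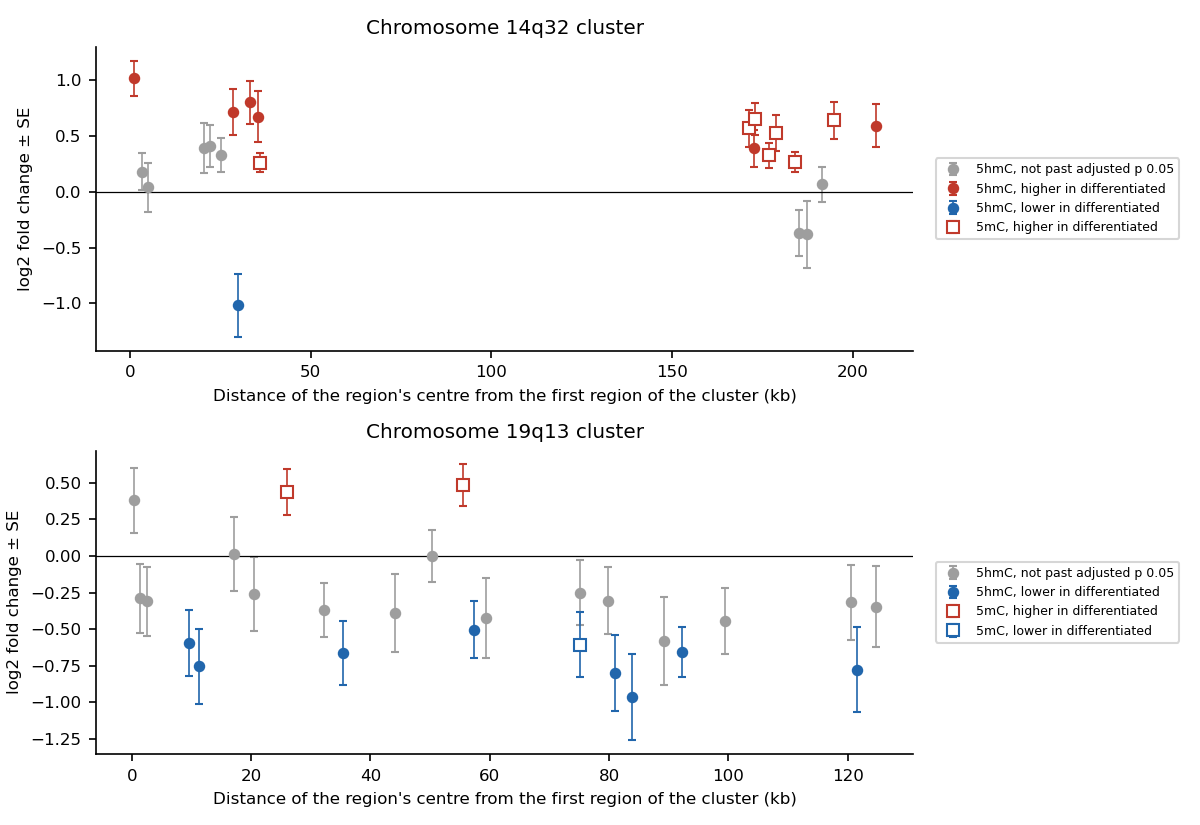
Log2 fold change ± SE (y axis) of each region against the distance of its centre from the first region (x axis, kb) for the 14q32 cluster (top) and the 19q13 cluster (bottom); circles are 5hmC and open squares 5mC, colored red or blue where the adjusted p was under 0.05. All 7 squares at 14q32 lie above 0, and the 8 colored circles at 19q13 all lie below it.

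MicroRNA genes of muscle, nerve and epithelium, which are not typical of blood, had 28 5hmC regions with 8 higher and 6 lower (median 0.13). Of all 5hmC regions, 27.0% were higher and 23.3% lower. The list counts were 4 and 8 with plain library totals and 4 and 3 with DESeq2, and the rises numbered 5 without differentiated replicate 1. MIR216A, a pancreatic microRNA, rose 607 bases upstream of its start (chr2:56216801-56217400) from 0.949, 1.11 and 1.51 CPM to 2.93, 2.69 and 2.47 CPM. All differentiated libraries were well above the others (1.23 ± 0.22, adjusted p = 1.73e-05). The hairpin of MIR153-1, inside the neuroendocrine gene PTPRN, rose in both marks, in 5hmC from 5.94, 5.06 and 6.1 CPM to 8.45, 10.2 and 8.3 CPM (0.63 ± 0.15, adjusted p = 0.000579) and in 5mC from 2.83, 3.3 and 2.45 CPM to 3.6, 6.46 and 5.6 CPM (0.85 ± 0.24, adjusted p = 0.00904). The states did not overlap in either mark, but the 5mC call was lost with plain library totals (adjusted p = 0.122) and without differentiated replicate 2 (adjusted p = 0.0867) or undifferentiated replicate 3 (adjusted p = 0.0534). The hairpin of its paralog MIR153-2, inside PTPRN2, was higher in 5mC too (0.49 ± 0.13, adjusted p = 0.00809). That call was lost with plain library totals (0.23, adjusted p = 0.625) and without undifferentiated replicate 3 (0.32, adjusted p = 0.18). Scaling on the strongest regions and DESeq2 ended the 5mC calls at both hairpins.

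Falls on this list were as large. MIR183, a microRNA of sensory cells, went from 1.71, 1.5 and 1.45 CPM to 0.845, 0.716 and 0.564 CPM in 5hmC in an island shore 1747 bases upstream (chr7:129416601-129417000; -1.21 ± 0.27, adjusted p = 0.000437). MIR138-2 went from 1.76, 2.17 and 1.81 CPM to 1.01, 0.806 and 0.814 CPM (chr16:56891001-56891600; -1.11 ± 0.25, adjusted p = 0.000378). In both the states were separate and every setting kept the call. The p53-responsive MIR192 and MIR215 clusters, which carry the same mature miR-194, had log2 fold changes of opposite sign. The region just downstream of MIR215 and MIR194-1 was lower (-1.10 ± 0.28, adjusted p = 0.0015), a call that every setting kept. The hairpin region of MIR192 and MIR194-2 was higher (0.58 ± 0.17, adjusted p = 0.00453), a call lost with plain library totals (0.37, adjusted p = 0.0699), with scaling on the strongest regions (adjusted p = 0.152), with DESeq2 (adjusted p = 0.0818) and without differentiated replicate 3 (0.32, adjusted p = 0.218).

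Among erythroid and lymphoid microRNA genes, 2 of 11 5hmC regions were higher and 0 lower, against 27.0% and 23.3% of all 5hmC regions. With plain library totals 2 were higher and 3 lower. MIR486, which lies in the erythroid gene ANK1 on chromosome 8, rose from 0.868, 0.627 and 1.03 CPM to 1.8, 2.15 and 1.91 CPM (1.20 ± 0.25, adjusted p = 0.000161). MIR222, which represses KIT, rose from 1.3, 1.4 and 1.03 CPM to 2.14, 2.42 and 2.16 CPM (chrX:45605801-45606400; 0.80 ± 0.22, adjusted p = 0.00243). The states were separate at both and every setting kept both calls. MIR150, a microRNA of mature lymphocytes, lost 5mC over a broad region 2676 bases upstream (chr19:50006801-50010000). The values went from 26.9, 24 and 24.5 CPM to 20.3, 20.8 and 16.9 CPM (-0.39 ± 0.10, adjusted p = 0.00531, or 0.0735 without differentiated replicate 3). DESeq2 did not call that 5mC region. The 5hmC regions of MIR150 did not pass (-0.34 and 0.12), but the first was called lower with plain library totals and with scaling on the strongest regions. The microRNAs of PVT1, a long RNA next to MYC, had 3 of 5 5hmC regions lower and both 5mC regions lower. The background shares of lower regions were 23.3% of all 5hmC and 37.0% of all listed 5mC regions. Capture also follows copy number, whose part in the values at PVT1 was not tested. MIR1204 was at -0.53 ± 0.18 in 5hmC (adjusted p = 0.0123) and -0.86 ± 0.21 in 5mC (adjusted p = 0.00303, or 0.0546 without undifferentiated replicate 3). DESeq2 called none of these PVT1 regions (adjusted p = 0.0968 and 0.105 at MIR1204). Without differentiated replicate 3 1 of the 5 5hmC regions was lower, without undifferentiated replicate 3 neither 5mC region was, and without differentiated replicate 1 1 5mC region was.

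Outside these lists, the largest 5hmC fall of all was 2569 bases upstream of MIR628 inside CCPG1 (chr15:55667801-55668200), from 1.52, 1.16 and 1.27 CPM to 0.169, 0.537 and 0.313 CPM. The differentiated libraries held less than every undifferentiated one (-2.09 ± 0.34, adjusted p = 7e-06). Further falls were at MIR3616 inside EYA2 (-1.51 ± 0.33, adjusted p = 0.000261), MIR4429 inside GREB1 (-1.42 ± 0.29, adjusted p = 0.000167) and MIR639 (-1.38 ± 0.26, adjusted p = 5.86e-05). MIR3616 had 4 of 5 5hmC regions lower and none higher, and both its 5mC regions were lower as well (-0.42, adjusted p = 0.0294, and -0.79, adjusted p = 0.0486). MIR3179 also fell (-1.38 ± 0.25, adjusted p = 2.47e-05), but the table assigns that region to 3 copies of the gene, which reads cannot tell apart. The largest 5hmC rise was 1835 bases upstream of MIR4693 (chr11:103718401-103718800), from 0.488, 0.531 and 0.483 CPM to 1.3, 0.985 and 1.85 CPM (1.58 ± 0.29, adjusted p = 4.45e-05).

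The largest 5mC rise was 1377 bases upstream of MIR3201 (chr22:48668201-48668800), from 2.29, 1.8 and 1.73 CPM to 4.51, 3.58 and 5.37 CPM, with the states apart (1.21 ± 0.26, adjusted p = 0.000795; DESeq2 adjusted p = 0.0622). Just downstream of MIR4454 (chr5:7268601-7269200) 5mC rose from 3.23, 3.15 and 3.32 CPM to 6.31, 5.78 and 7.32 CPM (1.00 ± 0.21, adjusted p = 0.000526). MIR4753 inside ARID4B, a chromatin regulator, fell from 4.85, 3.91 and 4.61 CPM to 2.14, 1.65 and 2.17 CPM (chr1:235352401-235352800; -1.15 ± 0.26, adjusted p = 0.00115; DESeq2 adjusted p = 0.0634). The rises at MIR3935, MIR4462, MIR4291 and MIR1973 (0.93 to 0.99) did not hold with scaling on the strongest regions.

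Among host transcripts other than MIR100HG, MIR137HG, the host of a neural microRNA, had 4 of 4 5hmC regions higher (median 0.71), MIRLET7DHG had 1 of 6 higher and 3 lower, and MIR4500HG had 2 of 11 higher and 3 lower. MIR31HG had 2 of 4 higher and 0 lower, and MIR143HG 2 of 3 higher and 0 lower. Over all host regions 16 of 55 were higher (29.1%) and 12 lower (21.8%) in 5hmC, near the 27.0% and 23.3% of all 5hmC regions.

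The extended models showed 5hmC calls in both directions, 270 of 948 higher and 234 lower (median -0.14), and 69 of 192 higher and 73 lower in 5mC. Because they cover long stretches of other genes, the values describe those stretches. Under MIR548O2, 5 of 42 were higher and 20 lower (median -0.46), and under MIR548H4, 25 of 54 were higher and 8 lower (median 0.39). Neighboring regions of a model share a chromosome stretch and are not replicates. The largest 5mC falls lay under such models, the largest under MIR548G within the collagen gene COL8A1 (chr3:99384401-99384800), from 4.18, 6.46 and 4.47 CPM to 1.58, 2.06 and 1.83 CPM (-1.46 ± 0.26, adjusted p = 3.06e-05), and in 5hmC a region under MIR548H3 fell by 2.00 (adjusted p = 0.000177). The 5hmC region with the highest level per kilobase lay under MIR548T in CNTNAP2 (chr7:148027001-148029200) with 43.2, 41.9 and 52.6 CPM before and 56.1, 82.7 and 44.7 CPM after, and its states overlapped (0.41 ± 0.19, adjusted p = 0.0608).

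The 5mC and 5hmC libraries were made from the same DNA preparations, so the comparisons are not independent, and the values are given side by side. Of the 404 5mC regions, 275 overlapped a 5hmC microRNA region by at least 1 base, in 286 pairs. At MIR29B1 both marks had a log2 fold change of -0.74, at MIR130A they were -1.15 (5mC) and -1.23 (5hmC), at MIR34A -1.08 and -0.60, and at the MIR153-1 hairpin 0.85 and 0.63. Calls of opposite direction occurred in 4 pairs, named after their values were seen. They are exceptions among the pairs called in both marks, and because the marks share their DNA no share of matching directions is given as a result. At MIR4682 5mC over the hairpin was higher (0.26) and 5hmC lower (-0.41). At MIR320E inside PRKD2 a long 5mC region was lower (-0.25) and overlapped 1 5hmC region that was higher (0.52) and 2 that were lower (-0.53 and -0.75). Under MIR548W 5mC was higher (0.45) and 5hmC lower (-1.43), and under MIR548T 5mC was lower (-1.40) and 5hmC higher (0.39).

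**Figure D4:**
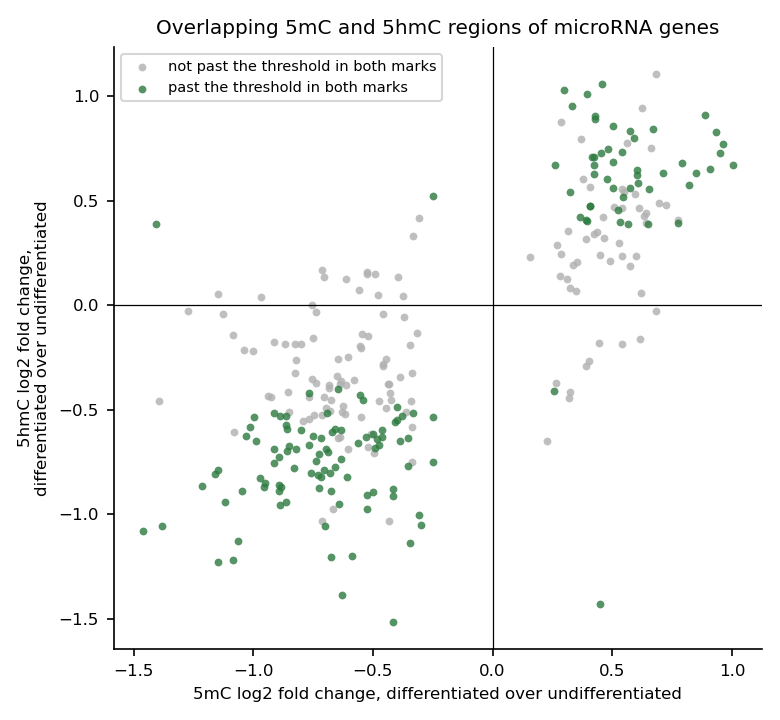
Log2 fold change of 5mC (x axis) and 5hmC (y axis) for the 286 pairs of overlapping microRNA regions, each point a pair and green where both marks passed an adjusted p of 0.05. The 4 green points in the upper left and lower right are MIR320E, MIR548T, MIR4682 and MIR548W, and the band without points near 0 on the x axis comes from the selection of the 5mC table.

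The limit of 5000 bases fell between similar regions. Just inside it in 5hmC were MIR1276 at 4992 bases (log2 fold change -0.58), MIR103B2 at 4991 (0.50) and MIR634 at 4991 (0.19), and just outside MIR101-1 at 5010 (-0.07), MIR548AA1 at 5012 (0.62) and MIR320D2 at 5017 (-0.58). In 5mC the members just inside were MIR634 at 4991 (0.34), MIR320D1 at 4990 (-0.65) and MIR140 at 4985 (0.52), and the regions just outside MIR3125 at 5094 (0.61), MIR208A at 5126 (0.68) and MIR3141 at 5169 (-0.67).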

How the data were processed

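The authors deposited a table for each mark with unnormalized read counts per region and library (genome GRCh37, hg19; the submitters' processing notes name BWA, SAMtools 0.1.18, bedtools 2.17.0, SICER 1.1 and edgeR 2.11 without their roles), and with their own log2 fold change and log2 CPM, p-values and adjusted p-values. How regions were called is not given. By the deposited distances (per the file headers), regions were assigned to microRNA symbols and to CpG islands. In the deposited log2 values a positive sign means more signal before DMSO; fold changes here have the opposite sign. In the authors' deposited table, 516 5hmC microRNA regions were higher and 397 lower at an adjusted p under 0.05, and 164 and 153 in 5mC.

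Counts of the whole tables were tested in R 4.3.3 with edgeR 4.0.16 (filterByExpr, TMM, quasi-likelihood F test, Benjamini-Hochberg). The 5mC p-values were adjusted over the 328588 tests that the deposited p-values imply; because only selected regions informed the dispersion, these p-values can be too small. On simulated counts over all regions, the fit recovered 55 of 100 regions with 2-fold and 93 of 100 with 3-fold changes for 5hmC, and 77 and 99 of 100 for 5mC. False calls numbered 11 and 7. The simulation gave all regions the same dispersion, changed only these regions, evenly in both directions, and adjusted 5mC over the listed regions only. In the data 50.3% and 72.7% of regions were called, so the simulation does not measure recovery there. The alternatives were plain library totals, TMM on the strongest 10% of regions, DESeq2 1.42.0, no count filter, a replicate block, each library left out, and narrower member rules. Named regions were those of the myeloid list, the largest rise and fall per list, the 10 largest rises and falls per mark, the 10 genes with the largest changes in both marks, the region with the highest CPM per kilobase, those next to the limit, and 24 added after their values were seen. The members and lists were chosen with earlier results of these data known. Several list genes sit in more than 1 list. No genome or annotation of hg19 was used, so exons and introns were not told apart.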

Additional observations from a re-analysis of the deposited data

How the results depend on the processing

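Plain library totals changed the 5hmC counts of 547 higher and 462 lower regions to 282 and 727, and scaling on the strongest 10% of regions changed them to 204 and 828; the 156 higher 5mC regions became 10 and 7. DESeq2 gave 257 and 141 in 5hmC and 11 and 11 in 5mC. Counting only regions that overlap the gene gave 321, 248, 96 and 83, and only microRNA loci, an alternative chosen after seeing the data, 261, 216, 81 and 74. Leaving out 1 library gave 356 to 549 and 259 to 468 in 5hmC and 89 to 109 and 89 to 102 in 5mC; the lowest 5hmC counts came without undifferentiated replicate 1 (356 higher, 269 lower) and differentiated replicate 3 (259 lower). No pairing by replicate number was seen (correlation of same-numbered deviations from the state means -0.105 to 0.001 in 5hmC and -0.01 to 0.011 in 5mC). With 3 libraries per state these correlations cannot show that the samples were unpaired. With the replicate block the counts were 474, 396, 155 and 151. Of 61 called named 5hmC regions, 45 kept the call in every fit without 1 library, 52 with plain totals and 43 with DESeq2; of 45 in 5mC, 21, 30 and 7 did.

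Signs reversed only in named regions that had not passed in 5hmC and in 2 5mC regions of 14q32 (MIR433 -0.023 and MIR494 -0.016 on strong regions). With plain totals and strong regions respectively these were MIR126 (-0.064, -0.141), MIR34A (-0.101, -0.178), MIR196B (-0.021, -0.10), MIR150 (-0.087, -0.165) and MIR146B (-0.142, -0.22), and with strong regions MIR125A (-0.026). Over the fits without 1 library, values ran from -0.228 to 0.6 for MIR142, -0.031 to 0.254 for MIR34A, -0.031 to 0.357 for MIR196B, -0.052 to 0.558 for MIR150, -0.157 to 0.062 for MIR328, -0.11 to 0.239 for MIR146B and -0.23 to 0.039 for MIR146A. The causes were not tested. How calls depend on depth was not tested.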
